A study of Canis lupus familiaris with 22 samples.

Results

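The blood transcriptome of dogs with canine atopic dermatitis (cAD) before allergen-specific immunotherapy (ASIT) was compared with that of healthy control dogs (ctrl), a comparison written below as 0 vs. ctrl. Of the 22 two-color Agilent canine arrays of the study, 15 belong to this comparison, 7 from cAD patients before ASIT and 8 from ctrl. The remaining 7 arrays come from the same patients after 6 months of ASIT and served only to choose the probes and to estimate the spread of each. Both groups consisted of adult, privately owned dogs of several breeds and both sexes, and neither had received ASIT. The patients had a clinical diagnosis of cAD and were sampled while skin signs were visible and after a period without anti-inflammatory drugs. The ctrl dogs were blood donors. Each dog gave 1 array, with its own RNA in the Cy5 channel and, in the Cy3 channel, the same pool of RNA from 13 other healthy dogs as a reference. The sample labels name whole blood collected into RNA-preserving tubes, whereas the study's text speaks of peripheral blood nuclear cells. Results are given for 19990 of the 43603 probes, those for which the scanner software marked both channels as well above background on all 22 arrays, so that no spot at background level counts. These probes cover 7963 genes with a symbol, each read from its brightest probe, and the values are log2 ratios of dog to reference pool. Differences are given as before ASIT minus ctrl on this log2 scale, ± their standard error (SE) from limma, a linear model fitted to all probes.

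Canine atopic dermatitis is an itchy, relapsing skin disease of sensitized dogs. Type 2 helper T cells release interleukins that recruit eosinophils and drive B cells to switch to IgE, which arms mast cells and basophils. Blood carries these cells only in passing. Its RNA comes mainly from neutrophils, lymphocytes and monocytes, with a contribution of platelets and of young red cells that still hold globin and heme synthesis transcripts. Lymphocytes are rich in ribosomal protein transcripts, and immunoglobulin transcripts come almost entirely from plasma cells and their precursors.

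Markers of the blood cell types were present throughout. Of the neutrophil genes on the array, 24 of 25 were well measured, together with 22 of 23 T cell, 26 of 31 erythroid, 21 of 27 platelet, 16 of 19 monocyte and 12 of 19 B and plasma cell genes. Of the eosinophil, basophil and mast cell genes, 7 of 15 passed. Counts and medians of a list below cover these measured genes and not its full membership. *KDM5D*, a Y-linked gene, had a log2 ratio above 0.5 in 5 of 8 ctrl dogs and in 2 of 7 patients, and below 0 in all others, so the sex ratio of the groups was unequal and its part in the results below was not tested.

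The slides limit every value that follows. The ctrl arrays filled slides 1 and 2 and were scanned on a day of their own, whereas the patients lay on slides 3 to 5, so that group cannot be told apart from slide or scan day. Cy5 was well above background for a median of 87.8% of probes in ctrl (83.7% to 92.2%) and 62.6% before ASIT (53.3% to 87.4%), where dog 1 had the highest share and dog 7 the lowest. The reference pool is the same RNA on all arrays, yet its Cy3 signal alone, scaled to the 75th percentile of each array, passed an adjusted p of 0.05 between the groups for 8490 of the 19990 probes (42.5%). The ratio divides this channel out, spot by spot. How much of the difference remains in the ratio was not tested.

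Single dogs covered a wide range within each group. Log2 ratios of 2 dogs correlated across probes by r = -0.51 to 0.71 (median 0.04 over 105 pairs). The correlation was under -0.3 in 11 pairs, and in 6 of these both dogs were from the same group, while the labels give the dog in Cy5 on every array. The first principal component held 40.9% of the variance. Its scores ran from -66.1 in dog 5 to 73.3 in dog 2 before ASIT and from -43.7 to 39.0 in ctrl, so the patients spanned the ctrl dogs on both sides. The standard deviation was larger before ASIT than in ctrl for 69.4% of probes, with a median of 0.39 against 0.31.

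**Figure D1:**
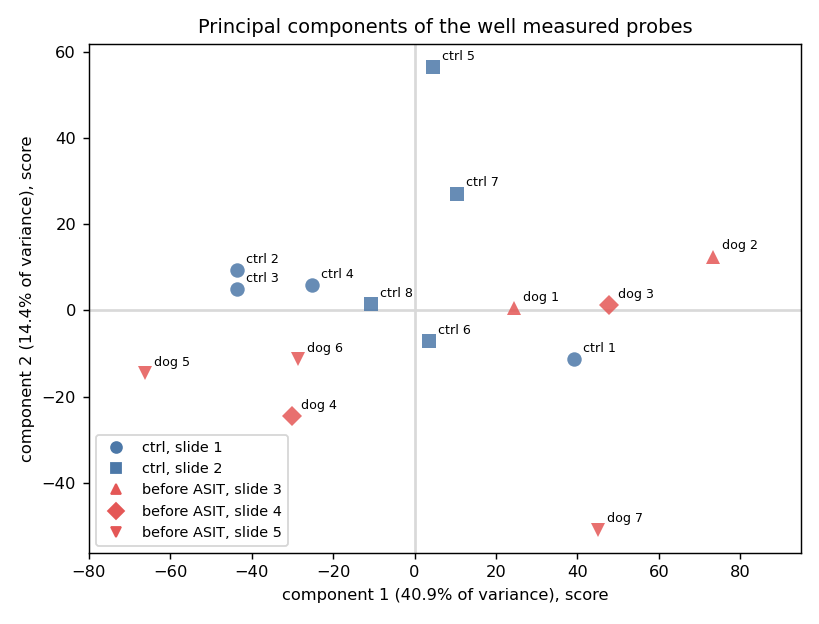
Scores of the 15 arrays on the first and second principal component of the well measured probes, with 1 point per dog, colored by group and shaped by slide. The 7 patients lie on both sides of the 8 ctrl dogs along the first component, which holds 40.9% of the variance, and ctrl 5 and dog 7 mark the ends of the second.

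No transcript passed the threshold of an adjusted p of 0.05. In limma with Benjamini-Hochberg adjustment, 0 of 19990 probes were called (0%), with a smallest adjusted p of 0.187. The tests named in the study's methods, a one-way test over the groups followed by Tukey's test, were run on these 19990 probes and called 0 after Benjamini-Hochberg adjustment. Before adjustment, 1410 probes passed the first step at 0.05, 943 the second for 0 vs. ctrl, and 884 both. The study chose its probes by other filters, on flags and on the coefficient of variation. Its own list of transcripts was therefore not reproduced here. In limma before adjustment, 1683 probes (8.42%) had p under 0.05, 491 higher in the patients (2.46%) and 1192 lower (5.96%). Among the named genes these were 571 of 7963 (7.17%), 187 higher (2.35%) and 384 lower (4.82%). The difference between groups, before ASIT minus ctrl, had a median near 0 (0.005) and quartiles of -0.14 and 0.17. Its standard error had a median of 0.19. A fold of 2 or more was reached by 57 probes. All values below are therefore given as measured differences that did not pass the test.

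The probe with the smallest p carried no gene name and no position in the annotation of the array. Its sequence, given here because no other identity is known, was as follows, with no part marked.
A_11_P0000010531: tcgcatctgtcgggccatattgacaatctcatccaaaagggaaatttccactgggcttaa
Its log2 ratio was -0.13, 0.46, 0.49, 0.85, 1.07, 0.41 and 0.62 in dogs 1 to 7 before ASIT and ran from -0.81 to -0.02 in ctrl, with a median of -0.38. Dog 1 alone lay among the ctrl dogs. The difference was 0.94 ± 0.17 (SE), with an adjusted p of 0.187 in limma. Without the array of dog 1 before ASIT it was 1.05 and the adjusted p 0.0216 in limma. This made it the single called probe in any fit that left out 1 of the 15 arrays. That fit kept the arrays after ASIT, that of dog 1 included, and took the arrays of a patient as independent. With all dogs, the smallest adjusted p of any probe in limma was 0.598 on the 15 arrays alone and 0.390 with the dog as a random block. The array of dog 1 before ASIT was also the patient array with a share of probes above background in the range of ctrl (87.4%).

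Among named genes, the 5 with the smallest unadjusted p among those higher before ASIT and 4 of the 5 among those lower are described next, and all 9 shared an adjusted p of 0.332 in limma. Higher before ASIT were *LIN9*, a subunit of the complex that switches cell cycle genes on and off, *HSPBAP1*, which binds a small heat shock protein, *TMEM79* (mattrin), a membrane protein of the epidermis known from inherited dermatitis in mice, *HNRNPK*, an RNA-binding protein, and *GABRG3*, a subunit of the GABA receptor. *TMEM79* (chr7:41591911-41591970 of canFam3.1) had a log2 ratio of 0.05 to 1.25 before ASIT, with a median of 1.06, and of -0.44 to 0.37 in ctrl, with a median of 0.09. In 5 of the 7 patients it exceeded all ctrl dogs, and the difference was 0.80 ± 0.19, which shrank to 0.16 both with another background correction (normexp and loess) and in the Cy5 channel alone. *GABRG3* (chr3:32964133-32964192) differed by 0.97 ± 0.24, with a patient median of 0.71 and a ctrl median of -0.18, but with normexp and loess it was 0.29 and in the Cy5 channel alone the sign turned (-0.046). *LIN9* differed by 0.71 ± 0.15 on the probe at chr7:38647983-38648042, while its second well measured probe gave 0.18 ± 0.21, and normexp and loess 0.31 for the first. *HSPBAP1* (chr33:25803592-25803651) differed by 0.71 ± 0.16, and its lowest patient (0.08) stood just above the highest ctrl dog (0.07). *HNRNPK* differed by 0.57 ± 0.14 on its brightest probe, and its 3 other well measured probes gave 0.24, 0.25 and -0.22, so the probes of this gene disagreed.

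Lower before ASIT were *CS*, citrate synthase of the Krebs cycle, *CDT1*, which licenses DNA replication, *ABHD15*, a lipase-like protein of fat cells, and *IGHAC*, the constant region of the IgA heavy chain. *CDT1* (chr5:64566090-64566149) ran from -0.45 to -0.09 before ASIT and from -0.02 to 0.48 in ctrl without overlap. Its difference was -0.42 ± 0.11. *CS* (chr10:585964-586023) differed by -0.54 ± 0.13, with medians of -0.23 and 0.37, but by only -0.051 in the Cy5 channel alone. *ABHD15* differed by -0.49 ± 0.12. *IGHAC* had the largest difference of these 9 genes and is taken up with the other immunoglobulin transcripts. Patients and ctrl were fully separated for 20 probes (0.1%), 5 higher and 15 lower, of which 9 were brightest probes of named genes (0.113% of 7963).

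**Figure D2:**
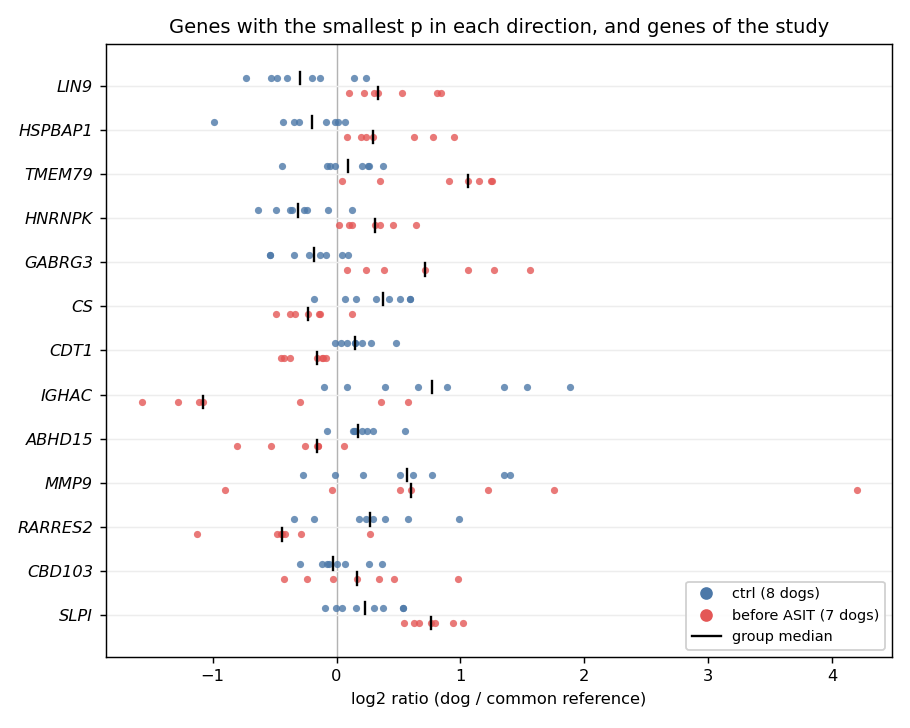
Log2 ratio of dog to common reference in each of 15 dogs (points) with group medians (bars), for the 9 described genes with the smallest unadjusted p in each direction and the 4 well measured genes of the study text. *HSPBAP1*, *CDT1* and *SLPI* do not overlap between groups, while *MMP9* before ASIT runs from -0.90 to 4.20.

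Of the 9 genes that the study singled out from these same arrays, 4 were well measured, so their direction is no independent evidence. *SLPI*, an inhibitor of neutrophil proteases in secretions and granules, ran from 0.54 to 1.02 before ASIT and from -0.09 to 0.54 in ctrl. The groups touched without overlap and differed by 0.53 ± 0.15 (limma adjusted p = 0.332). The other well measured *SLPI* probe differed by 0.72 ± 0.25. With normexp and loess the difference of the brightest probe was 0.056, and in the Cy5 channel alone its sign turned, to -1.04. *RARRES2* (chemerin, a chemoattractant) differed by -0.69 ± 0.19 on its brightest probe and by -0.9996 ± 0.23 on the other (adjusted p = 0.332 for both). *MMP9*, a gelatinase of neutrophil granules, was spread widest among patients, from -0.90 to 4.20 with a median of 0.60 against 0.57 in ctrl. Its difference of 0.48 ± 0.65 became -0.04 without dog 6. *CBD103*, the canine beta-defensin that also sets coat color, differed by 0.16 ± 0.21 on its brightest probe and by 0.73 ± 0.44 on the other. The brightest probe gave 0.03 without dog 2 and 0.26 without dog 4.

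Immunoglobulin transcripts had lower mean values in the patients for most probes, and 0 of them were called. This class was noticed after the values had been seen, so it is described without a test. The sequences of 6 of its probes are shown because immunoglobulin genes are members of large families and the array annotation names several of them only by a sequence record. All lie on the minus strand of canFam3.1, and the bases in capitals are the 43 that the pair of J chain probes shares.
IGHAC: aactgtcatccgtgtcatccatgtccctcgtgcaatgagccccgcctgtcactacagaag
TC61842: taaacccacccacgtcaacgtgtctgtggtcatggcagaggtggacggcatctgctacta
EF207774: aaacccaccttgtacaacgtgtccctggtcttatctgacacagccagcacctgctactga
EU305427: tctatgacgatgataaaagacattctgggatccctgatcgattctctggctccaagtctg
IGJ-1: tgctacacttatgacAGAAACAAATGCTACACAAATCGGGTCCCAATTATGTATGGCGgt
IGJ-2: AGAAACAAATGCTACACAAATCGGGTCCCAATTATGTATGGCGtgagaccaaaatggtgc
The first and second belong to the IgA (alpha) heavy chain at chr8:72851602-72851664 and chr8:72850736-72850795, the third to the IgM (mu) heavy chain at chr8:72979952-72980011, and the fourth to a lambda light chain variable region at chr26:25571237-25571296. The last pair belongs to *IGJ*, the J chain that joins IgA and IgM into polymers, at chr13:59963327-59963386 and chr13:59963311-59963371. Since these share most of their bases, they are not separate measurements of the gene.

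Of 31 well measured immunoglobulin probes, 27 had a lower mean before ASIT than in ctrl, with a median difference of -0.76, against 0.005 over all well measured probes. Before adjustment, 18 had p under 0.05 and a lower mean (background 5.96%), and 0 had p under 0.05 and a higher mean (background 2.46%). The 2 alpha chain probes had the largest differences, -1.99 and -1.46. *IGHAC* was 0.36, -1.08, -1.11, 0.58, -1.28, -1.57 and -0.29 in dogs 1 to 7, and 1.35, 1.54, 1.89, 0.39, 0.65, -0.10, 0.09 and 0.89 in ctrl 1 to 8. Thus 5 patients lay below the lowest ctrl dog and dogs 1 and 4 lay inside the ctrl range. The difference was -1.46 ± 0.37, and -0.89 in the Cy5 channel alone. TC61842 gave the same order of dogs at its ends, with dog 6 lowest (-2.80) and dog 4 highest (0.84) among patients. A further probe without a chain name, DN877530, placed between both at chr8:72851108-72851368, differed by -1.58 ± 0.37.

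The 5 *IGJ* probes differed by -1.11 to -1.28. The first printed one ran from -2.81 to 1.08 before ASIT and from -0.80 to 1.33 in ctrl, with dogs 6, 3 and 2 lowest and dog 4 highest among patients. Of the 3 mu chain probes, EF207774 differed by -1.17 with 7 of 7 patients and 5 of 8 ctrl dogs below 0, another by -0.75 and the third by 0.11. All 13 lambda chain probes were lower in the patients, with differences of -1.17 to -0.07, and EU305427 had medians of -0.55 before ASIT and 0.33 in ctrl. The 4 gamma chain probes differed by -0.17 to -0.81, the kappa probe by -0.19, the delta chain probe by 0.16 and 2 further heavy chain probes by 0.04 and 0.35. The median over the 31 probes was -1.32 in dog 2, -1.11 in dog 6 and -0.83 in dog 3, and lay between -0.38 and 0.81 in ctrl, where the other 4 patients also fell. By slide, the ctrl medians ran from -0.16 to 0.81 on slide 1 and from -0.38 to 0.72 on slide 2.

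Surface markers of B cells were closer to 0. *MS4A1* (CD20) differed by -0.06 ± 0.44, *CD79A* by -0.03 ± 0.15 and *CD79B* by 0.19 ± 0.32, the last pair being the signaling chains of the B cell receptor. Within the B and plasma cell list, 6 of 12 genes were higher and 6 lower, and the median difference was -0.01. Leaving out each array in turn gave -0.05 to 0.20, the highest without dog 2. Dog 2 had the lowest *MS4A1* (-1.97), whereas dog 6 combined the lowest *IGHAC* value of the patients with a *MS4A1* of 0.93. In bulk blood, fewer cells of a type and less RNA per cell cannot be told apart.

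**Figure D3:**
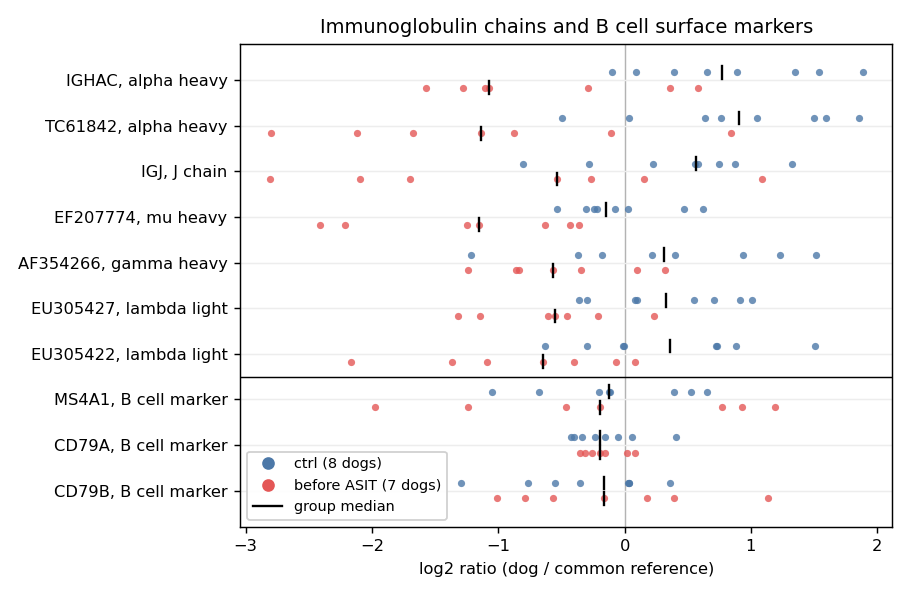
Log2 ratio of dog to common reference in each of 15 dogs (points) with group medians (bars), for 7 immunoglobulin probes above the line and 3 B cell surface markers below it. The patient median lies below the ctrl median for all 7 immunoglobulin probes, and *IGHAC* shows 5 patients below the lowest ctrl dog, while *CD79A* and *CD79B* have nearly equal medians.

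Ribosomal proteins, the structural components of the ribosome, were the list with the most members at p under 0.05. Of 81 cytosolic ribosomal protein genes, 48 were on the array and 46 well measured. Of these, 38 had a higher mean before ASIT and 8 a lower one. Before adjustment, 18 (39.1%) had p under 0.05, all of them higher, beside 2.35% of named genes in that direction, and 0 were called. The median difference was 0.29, against 0.02 over all named genes, with members between -0.39 (*RPS24*) and 0.67 (*RPL23*). The brightest members were *RPS4X*, with a difference of 0.42 ± 0.21 and medians of 0.53 and 0.08, and *RPS14*, with 0.34 ± 0.13 and medians of 0.41 and 0.06. Their other well measured probes gave smaller differences, 0.16 ± 0.22 for *RPS4X* and 0.23 ± 0.14 for *RPS14*.

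The list median per dog was -0.17, -0.30, -0.18, 0.45, 0.23, 0.28 and 0.10 in dogs 1 to 7 and ran from -0.66 to 0.17 in ctrl. Dogs 1, 2, 3 and 7 thus lay among the ctrl dogs, and dogs 4, 5 and 6 lay above all of them. Both dogs of slide 3 were low, the 3 dogs of slide 5 were at 0.10 to 0.28, and slide 4 held the lower dog 3 beside the highest, dog 4. The part of the slide in this was not tested. In ctrl, slide 1 held -0.29 to 0.02 and slide 2 held -0.66 to 0.17. Leaving out each array in turn gave median differences of 0.19 to 0.35. Many ribosomal protein genes have processed copies in the genome that a probe cannot separate.

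**Figure D4:**
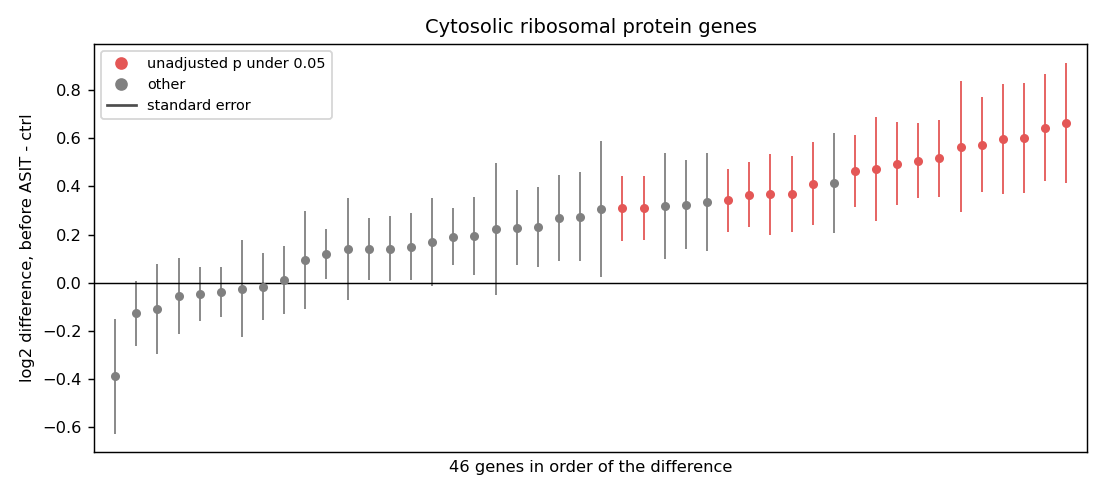
Difference of log2 ratio, before ASIT minus ctrl, with its standard error (bars) for 46 cytosolic ribosomal protein genes, 1 point per gene in order of size. The 18 genes in red have an unadjusted p under 0.05 and all lie above 0, between 0.31 and 0.67, and 0 genes passed the adjusted threshold.

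Type 2 immunity, the arm of allergic disease, showed no common direction. Of 33 well measured genes of type 2 cytokines and JAK-STAT signaling, 15 were higher and 18 lower, with a median difference of -0.01. Before adjustment 4 had p under 0.05, all lower, which is 12.1% of the list beside 4.82% of named genes. They were *IL4*, *CCL22*, *STAT2* and *PIAS1*. *IL4*, the cytokine that drives type 2 differentiation and IgE switching, had a median of -0.17 before ASIT (highest 0.13) and of 0.26 in ctrl (-0.41 to 0.63), a difference of -0.51 ± 0.18 (adjusted p = 0.366), or -0.19 in the Cy5 channel alone. This came from 1 of 4 *IL4* probes, since the other probes were well above background in Cy5 on only 11 to 13 of the 22 arrays. *CCL22*, a chemokine that attracts type 2 T cells, had medians of -0.18 and 0.09 and differed by -0.33 ± 0.11 (adjusted p = 0.345). Members of the list ran from -0.51 to 0.63. Of the IL-4 receptor and its messengers, *IL4R* was at -0.11, *JAK1* at 0.16, *JAK2* at -0.03, *STAT3* at 0.01 and *STAT6* at 0.01, while *IL6ST*, the signal chain shared by IL-6 type receptors, was at -0.26 ± 0.14 on its brightest probe and at 0.08 and -0.14 on the others. *IL5RA*, the receptor of eosinophils for IL-5, differed by 0.49 ± 0.24. *IL13* and *IL5* were on the array but not well above background on all arrays, so nothing is said about them here.

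The eosinophil, basophil and mast cell list had a median difference of -0.003, with 3 genes higher and 4 lower and 0 at p under 0.05. *FCER1A*, the IgE-binding chain of the high-affinity receptor, differed by 0.17 and *MS4A2*, its beta chain, by 0.13. The median rested on single dogs, and was 0.28 without dog 7 and -0.13 without dog 6. Its brightest members were *CSF2RB*, the shared receptor chain for IL-3, IL-5 and GM-CSF, at -0.20 ± 0.12, and *CCR3*, the eotaxin receptor, at -0.04 ± 0.38.

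T cell genes had a median difference of 0.07. *CD3D*, a chain of the T cell receptor complex, differed by 0.14 ± 0.26 and *LCK*, its kinase, by 0.00 ± 0.21, and the list held 1 gene at p under 0.05, *THEMIS*, at -0.35, a share of 4.55% beside 4.82% of named genes that were lower. T cell receptor signaling held 41 genes with a median of -0.02 and 0 at p under 0.05. Genes of regulatory T cells and tolerance had a median of 0.01 over 16 genes, 1 of them, *SMAD2*, at p under 0.05 (-0.38 ± 0.16, with -0.06 ± 0.18 on its second probe and 0.08 in the Cy5 channel alone), which is 6.25% beside 4.82%. *FOXP3* and *IL10* were not among them, since they fell short of background limits on part of the arrays. Cytotoxic and NK cell genes had a median of -0.01 over 13 genes with 0 at p under 0.05. That median was -0.24 without dog 3 and 0.09 without ctrl 8. *CCL5*, a chemokine of cytotoxic cells, spread from -2.06 to 0.90 before ASIT and from -2.15 to 1.36 in ctrl.

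Neutrophil surface and signaling genes differed by a median of 0.01, with 13 higher, 11 lower and 0 of 24 at p under 0.05. The granule proteins, which neutrophils make while still in the marrow, had a median of 0.20 over 14 genes. Only *SLPI* among them had p under 0.05, which is 7.14% of the list beside 2.35% of named genes that were higher. The median hid a wide spread between dogs, with list medians of 0.61 to 0.77 in dogs 2, 3 and 6 and -0.41 in dog 7. Of the 8 ctrl dogs, 7 lay between -0.39 and 0.14, and ctrl 7 was at 0.49. *PGLYRP1*, a bactericidal granule protein, was 3.53, 2.19 and 2.01 in the same 3 dogs and at most 0.33 in the other patients, and ran from -0.39 to 1.26 in ctrl. The brightest granule genes, *S100A8* and *S100A12*, calcium-binding proteins of the calgranulin group, differed by 0.00 ± 0.19 and -0.01 ± 0.19. Without dog 2 the granule median was 0.05.

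Monocyte genes had a median of -0.10 with 0 of 16 at p under 0.05, and dog 7 stood apart at -0.87. Without dog 7 the median was -0.0002. *CD68*, a lysosomal protein of phagocytes, differed by 0.46 ± 0.35 and *CSF1R*, the receptor for the growth factor of monocytes, by -0.10 ± 0.14. Of 9 dendritic cell genes, 8 were lower and 2 of them had p under 0.05 (22.2%, beside 4.82% of named genes in that direction), *TCF4*, the regulator of plasmacytoid dendritic cells, at -0.45 ± 0.14 and *IRF4* at -0.54 ± 0.26. The latter is also made by plasma cells. The list median of -0.10 was -0.008 without dog 7. MHC class II and antigen presentation had a median of -0.09, with 21 of 28 genes lower and 2 of them at p under 0.05 (7.14%, beside 4.82%). Without dog 2 the median was 0.003.

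Red cell genes had the widest spread of any list. The erythroid median was 0.59, 0.68, 0.91, -0.09, -1.05, -0.21 and 1.23 in dogs 1 to 7 and ran from -0.67 to 0.92 in ctrl. Patients thus lay on both sides of the ctrl dogs. The median difference over 26 genes was 0.30, with 18 higher and 8 lower and 2 at p under 0.05 (7.69%, both higher, beside 2.35% of named genes), *CA2* (carbonic anhydrase) at 0.64 and *FECH* (ferrochelatase, the last step of heme synthesis) at 1.01 ± 0.46. The brightest probe under the symbol *RHAG*, a membrane protein of red cells, differed by -0.30 ± 0.16, and by 0.40 in the Cy5 channel alone. The files place it on chromosome 1 and another *RHAG* probe (-0.47 ± 0.18) on chromosome 12, so it is uncertain whether both read this gene. *ALAS2*, the first step of heme synthesis in red cells, ran from -1.54 to 1.73 before ASIT and from -2.07 to 1.76 in ctrl. The order of dogs on the erythroid list resembled that on the first principal component, where dogs 2, 3 and 7 and ctrl 1 were also high and dog 5 was lowest. The median difference was 0.15 without dog 7 and 0.61 without dog 5.

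Platelet genes had a median of -0.32, with 18 of 21 lower. Those at p under 0.05 (9.52%, beside 4.82% of named genes that were lower) were *THBS1* (thrombospondin) at -0.83 ± 0.33 and *PPBP*, a chemokine of platelet granules, at -0.65 ± 0.31. *THBS1* ran from -1.20 to 0.75 before ASIT and from -0.82 to 1.37 in ctrl, and ctrl 1 was lower than 6 of the 7 patients. The list median per dog was -0.74 to 0.15 before ASIT and -0.74 to 0.71 in ctrl, and the median difference was -0.20 without ctrl 3.

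Interferon-stimulated genes, the antiviral program induced by type I interferon, had a median of -0.32 with 24 of 29 lower, and 3 had p under 0.05 (10.3%, all lower, beside 4.82% of named genes). These were *IFI35* at -0.55, *STAT2* at -0.49 and *IRF9* at -0.44 ± 0.18, the last pair being parts of the factor that reads the interferon signal, although a second *IRF9* probe showed nearly no difference and the Cy5 channel alone gave -0.033 for the first. A single healthy dog weighed on this list. Ctrl 7 had a list median of 1.13, with *MX1* at 3.20 and *OAS2* at 3.06, while the other ctrl dogs ran from -0.45 to -0.02 and the patients from -0.61 to -0.01. Without ctrl 7 the median difference was -0.11.

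**Figure D5:**
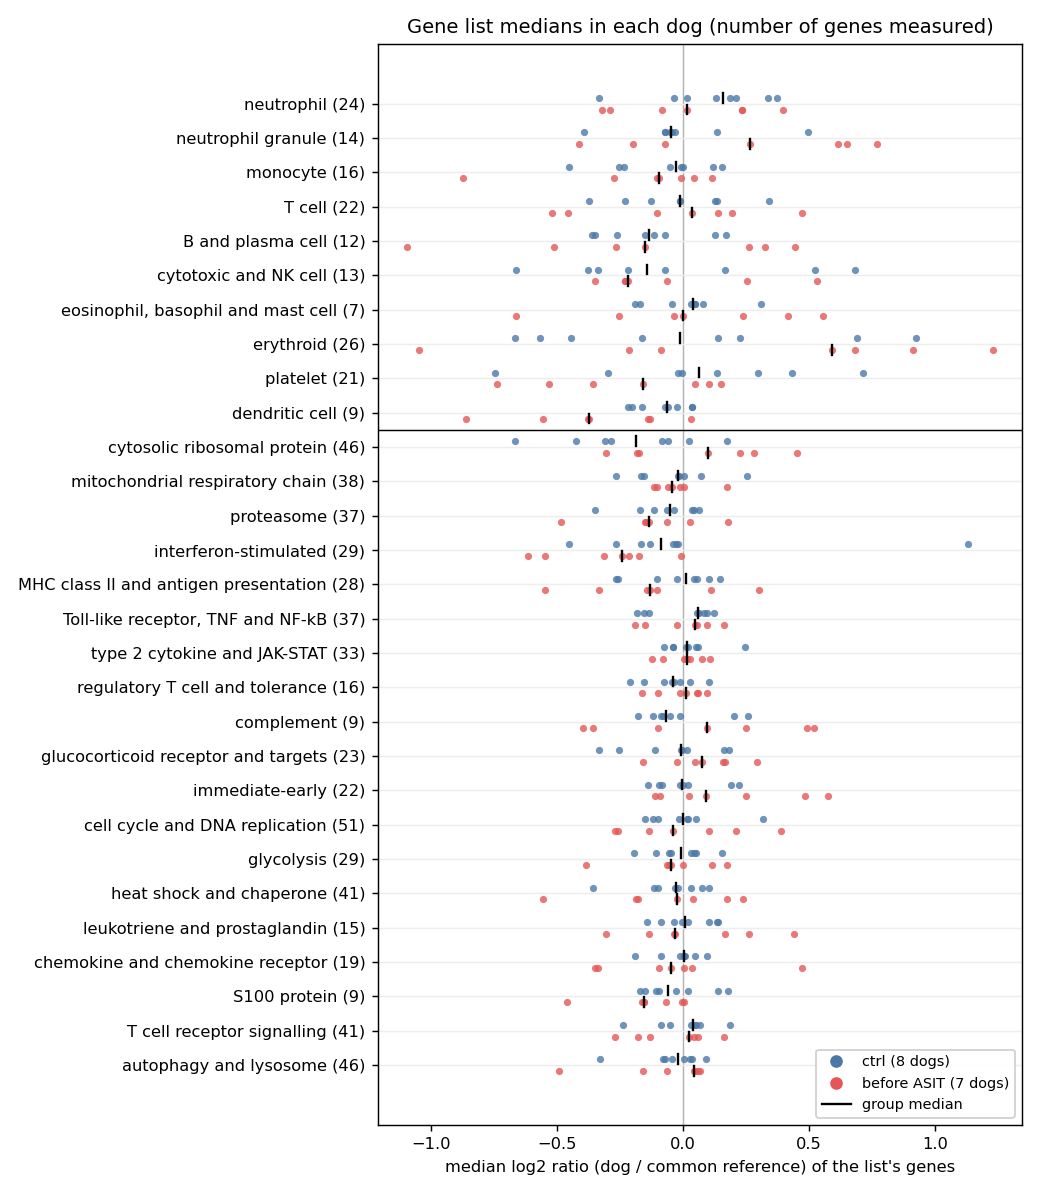
Median log2 ratio over the well measured genes of each list in each of 15 dogs (points) with group medians (bars), cell type lists above the line and pathway lists below it, the number of genes in parentheses. Erythroid medians run from -1.05 to 1.23 in the patients, ctrl 7 stands at 1.13 on the interferon-stimulated list, and on every list the groups overlap.

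Among the remaining pathways, targets of the glucocorticoid receptor had a median of 0.14 over 23 genes, with 4 higher and 1 lower at p under 0.05 (21.7%, beside 7.17% of named genes). *GADD45A*, a growth arrest gene, differed by 1.25 ± 0.37 and *DDIT4*, an inhibitor of mTOR, by 0.72 ± 0.22. The targets *FKBP5* and *TSC22D3* were also higher, by 0.47 and 0.36, with p above 0.05. Whether steroids had a part in these values was not tested. *GADD45A* was high in the dogs with high erythroid medians, with 2.40 in dog 7 and 1.91 in dog 3, and -0.02 in dog 5. Immediate-early genes had a median of 0.11 over 22 genes with 2 at p under 0.05 (9.09%, both higher, beside 2.35% of named genes), *NR4A1* and *DUSP1*. Without dog 2 the median was 0.035. Of 19 chemokines and their receptors, 1 was higher and 3 were lower at p under 0.05 (21.1%, beside 7.17%). *CXCR4*, which holds leukocytes in the marrow and lymphoid tissue, ran from 0.47 to 1.09 before ASIT and from -0.96 to 0.49 in ctrl, and differed by 0.75 ± 0.22 (adjusted p = 0.332). Lower were *CCL22*, *PPBP* and *CCL14*, the last by -0.70 ± 0.29, and the list median was -0.04.

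The medians of the other lists were near 0. Proteasome (37 genes), Toll-like receptor, TNF and NF-kB (37), glycolysis (29), heat shock (41), S100 (9), complement (9), leukotriene and prostaglandin (15), autophagy and lysosome (46), respiratory chain (38) and cell cycle genes (51) had medians between -0.07 and 0.05. In the respiratory chain list 2 genes were higher and 3 lower at p under 0.05 (13.2%, beside 7.17% of named genes). The leukotriene and prostaglandin list held 1 higher and 1 lower (13.3%). In the cell cycle list *CDT1* was lower, whereas *TYMS* (0.68), *GMNN* (0.50) and *AURKA* (0.53), which also act in dividing cells, were higher at p under 0.05. These 4 genes are 7.84% of the list, near the 7.17% of all named genes. The 2 brightest genes of each list differed by -1.19 (*IGJ*) to 0.69 (*ALAS2*), and 0 of them were called. Over all 29 lists, 58 of 685 measured genes (8.47%) had p under 0.05 before adjustment, beside 7.17% of all named genes, and 0 passed after it.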

How the data were processed

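The deposited scanner files hold, per the file headers, red and green intensity and the log10 ratio of Cy5 to Cy3 after background subtraction and Lowess normalization by the authors with Agilent Feature Extraction (10.7.3.1 in the submitters' notes, 10.10.1.1 in the headers). Ratios were converted to log2, 208 spots with an outlier flag left out and spots of a probe averaged. Probes well above background in both channels on all 22 arrays were fitted with limma 3.58.1 (R 4.3.3) in 3 groups without a block, with Benjamini-Hochberg adjustment, which called probes at an adjusted p under 0.05. A gene was read from its brightest probe, under the symbol in the files. Named are the 5 genes with the smallest p per direction, the study's genes and the 2 brightest genes of each list; others were chosen after their values were seen, and some genes are not reported here. The comparison, gene lists and members were chosen with earlier results of these data known. Alternatives were other normalizations, filters, blocks, tests and arrays left out. The number of arrays limits the precision, and the 22 arrays come from 15 dogs, since each patient has 2. The deposited series matrix equaled the scanner ratios for patients (r = 1) but not for ctrl (r = 0.948 to 0.983) and was used only as an alternative. Positions are those in the files (canFam3.1), and exons were not assigned. Figures were drawn with matplotlib 3.10.9.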

Additional observations from a re-analysis of the deposited data

Results flagged for a closer look

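In 198 groups of 7 or 8 dogs, formed by the named genes and the gene lists, 19 (9.6%) held a lowest or highest dog far from the others by Dixon's ratio, where chance gives about 1 in 20. Dog 7 before ASIT stood lowest in 5 of them, with medians of -0.87 for monocyte genes, -0.38 for glycolysis, -0.46 for S100 proteins and -0.49 for autophagy and lysosome, and -0.63 for *CTSB*, a lysosomal protease. This array also had the lowest share of probes with Cy5 above background (53.3%), and its part in these values was not tested.

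Ctrl 5 stood apart in 4 genes, *CSF1R* (0.55), *SMAD2* (1.37), *CCL22* (0.46) and *HSP90AA1* (-1.50), and marked one end of the second principal component. Ctrl 7 was highest on the interferon-stimulated list (1.13) and lowest for *CD1E* (-1.40), an antigen-presenting molecule of dendritic cells.

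Ctrl 1 was lowest for *TLR2* (-1.75) and on the autophagy and lysosome list (-0.33), and highest on the cell cycle list (0.32). The other values were *CTSW* in dog 2 (-1.49), *TXNIP* in dog 5 (0.55), *ITGAM* in ctrl 8 (-0.71), the respiratory chain list in dog 4 (0.18) and the type 2 cytokine and JAK-STAT list in ctrl 2 (0.25).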

How the results depend on the processing

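The count of 0 called probes was found in 14 of 18 other settings, among them the 15 arrays alone, normexp with loess, the series matrix, median centring, slide or scan day as a random block, array weights and the methods' test. It was 1585 in the Cy5 channel alone (253 higher), 16 with a filter on Cy5 in at least 7 arrays (38287 probes) and 17 with no filter (43603 probes), where more probes were tested. Added after seeing the data, the Cy3 reference alone gave 8490, and leaving out dogs 1 and 7 gave 0. Leaving out each array in turn gave 0 to 1, the 1 without dog 1. With the slide as a random block 1218 probes had an unadjusted p under 0.05, 749 with the scan day and 1654 with the dog (correlation 0.378), each with 0 called. Replicate numbers do not pair the dogs of the groups (correlations of deviations -0.45 to 0.28 over 7 pairs, 1 of them over 0.1), and the replicate block gave 0 called and 884 at an unadjusted p under 0.05.

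In the Cy5 channel alone the sign turned for 20 of 70 genes, among them *GABRG3* (-0.046), *SLPI* (-1.04), *RHAG* (0.40), *GAPDH* (0.53) and *SMAD2* (0.08), and *HSPBAP1* (0.86) and *HNRNPK* (0.68) passed the threshold. *MMP9* ran from -0.044 without dog 6 to 0.80 without dog 7. Of 464 combinations of a list and a setting, 18 moved the list median by more than the spread between dogs, most of them in the Cy5 channel alone, where antigen presentation was at 0.21 and immediate-early genes at -0.048. The cause was not tested. Ribosomal medians stayed between 0.16 and 0.45, interferon medians between -0.33 and -0.13, platelet medians between -0.35 and -0.15 and immunoglobulin medians between -0.86 and -0.48 in the other settings, while the erythroid median was 0.03 without dogs 1 and 7.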
